A study of Mus musculus with 8 samples.

Results

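The 10 genes described here carry the main steps of MHC class I antigen presentation in the mouse: the heavy chains *H2-K1*, *H2-D1*, *H2-T23* and *H2-M3*, the light chain *B2m*, the peptide transporter genes *Tap1* and *Tap2*, the loading factor *Tapbp*, the peptide-trimming enzyme *Erap1* and the transactivator *Nlrc5*. They were chosen by symbol as a pathway, and all 10 were found among the 55573 genes of the count matrix. RNA had been sequenced from microglia, the resident macrophages of the brain, sorted at postnatal day 60 from 4 mutants (genotype *Smad2/3* fl/fl;*Cx3cr1*Cre) and 4 controls, with 1 library for each animal, to ask what canonical TGFβ signaling through *Smad2* and *Smad3* contributes to microglial gene expression. In the mutants, Cre recombinase made from the *Cx3cr1* locus acts on floxed *Smad2* and *Smad3* in microglia and related macrophages. The series text calls the controls wild-type littermates, but by the Methods controls as a rule had 1 floxed allele and Cre, so both groups may have carried Cre.

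MHC class I molecules show short peptides from inside the cell to CD8 T cells and NK cells. The proteasome and peptidases make the peptides, the TAP1 and TAP2 transporter brings them into the endoplasmic reticulum, ERAP1 trims them there, and tapasin, the product of *Tapbp*, holds the empty heavy chain and β2-microglobulin complex beside the transporter until a peptide is bound. H2-K1 and H2-D1 are the classical heavy chains, H2-T23 (Qa-1) presents leader peptides of other class I chains to NK receptors, and H2-M3 presents formylated peptides. NLRC5 raises transcription of class I genes at a promoter module with an X box and a Y box, and interferons act on the same genes. Resting microglia are known for low MHC class I at the cell surface.

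Between 35639502 and 41946479 reads per library were counted on genes. *Smad3* was 9.61 to 35.1 CPM (counts scaled to library size after TMM normalization) in mutants and 39.5 to 56.9 CPM in controls, and *Smad2* was 42.7 to 75.9 CPM in mutants and 62.7 to 92.4 CPM in controls, with counts that include exons outside the floxed ones. *Xist* was 99.5 to 183 CPM in controls and 0.0276 to 0.562 CPM in mutants, and the Y-linked *Ddx3y* was 0.0269 to 0.224 CPM in controls and 9.74 to 59.8 CPM in mutants, so genotype and sex cannot be told apart in any comparison of these groups. Of 10 microglia and macrophage markers, 6 were lower in mutants (7.97% of all genes tested) and 4 had no call (*Ptprc*, *Aif1*, *C1qa* and *Fcer1g*). The summed level of the 10 markers was 31057 to 46548 CPM in controls and 10230 to 13292 CPM in mutants.

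The sequences before the start sites are shown because 4 of the genes share one arrangement of the class I promoter module. RefSeq promoters on GRCm38.p6 were matched for 8 of the 10 genes, and *Tap2* and *Nlrc5* were not matched. In each of 4 genes, the cyclic AMP response core TGACG (part of the X box) is followed after exactly 20 bases by ATTGG, the Y box in the gene's sense. These are the 30 bases, 5′ to 3′, with both motifs in capitals:
*H2-K1* (chr17:34000359-34000388, minus strand): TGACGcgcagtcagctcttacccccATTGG
*H2-D1* (chr17:35262993-35263022, plus strand): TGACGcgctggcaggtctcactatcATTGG
*H2-M3* (chr17:37270188-37270217, plus strand): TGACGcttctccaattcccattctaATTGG
*B2m* (chr2:122147609-122147638, plus strand): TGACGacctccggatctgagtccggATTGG
The module begins 41 bases before the RefSeq start in *H2-K1*, 101 in *H2-D1*, 46 in *H2-M3* and 78 in *B2m*. In *H2-D1* it lies inside the 5′ UTR of a longer GENCODE transcript. This spaced pair, searched for on both strands after the promoters had been read, is in 30 of 32817 promoter windows of 250 bases (0.0914%). Among the 8 genes with a window, 7 held ATTGG on either strand (33.8% of all windows), 5 held TGACG (17.7%), 4 held the Smad-binding letters CAGAC (42.2%) and 2 held the interferon response element, GAAA, any 2 bases and GAAA (2.97%). *Tapbp*, counted for ATTGG and CAGAC, has a RefSeq start 3579 bases from the GENCODE start of the gene. This distance is 364 bases in *H2-D1*, 285 in *Erap1*, 154 in *H2-T23* and at most 14 in the other genes with a window.

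An exact match to the letters of the interferon response element was in *B2m* and *H2-T23*. In *H2-T23* it stands on the other strand, inside an annotated 5′ UTR, and is shown with 10 bases on either side, the match in capitals:
*H2-T23* (chr17:36032806-36032835, minus strand): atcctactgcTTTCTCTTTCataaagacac
The whole windows of *H2-K1* and *B2m* are given to show where the elements lie, with all matches in capitals. In *H2-K1* these are CAGAC on the other strand, then TGACG and ATTGG:
*H2-K1* (chr17:34000348-34000597, minus strand): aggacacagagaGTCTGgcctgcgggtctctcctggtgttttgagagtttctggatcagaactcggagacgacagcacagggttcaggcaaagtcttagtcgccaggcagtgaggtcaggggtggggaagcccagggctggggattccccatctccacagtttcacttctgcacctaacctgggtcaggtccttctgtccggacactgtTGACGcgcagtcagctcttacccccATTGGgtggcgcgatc
In *B2m* the interferon response element precedes TGACG and ATTGG:
*B2m* (chr2:122147437-122147685, plus strand): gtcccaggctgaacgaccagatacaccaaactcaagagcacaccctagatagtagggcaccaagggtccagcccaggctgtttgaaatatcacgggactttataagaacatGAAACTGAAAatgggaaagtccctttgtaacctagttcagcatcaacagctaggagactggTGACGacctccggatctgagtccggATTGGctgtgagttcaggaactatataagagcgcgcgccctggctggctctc
The motif search covered only these windows and exact letters, and says nothing of binding. Variant forms of an element were not searched for, so a window without capitals may still hold one.

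All 4 heavy chain genes were higher in mutant microglia, whereas edgeR called none of the other 6 genes and DESeq2 called 1 of them, *Tap2*, lower. Each of the 4 was about 2 times its control level, with fitted folds between 1.81 and 2.19, and in each every mutant library stood above every control library. Among all 20153 genes tested, 4.36% were called higher and 7.97% lower with edgeR at an adjusted p under 0.05, and in CPM 9.04% had every mutant above every control and 13% every mutant below. DESeq2 also called each of the 4 higher, where it called 9.11% of 22931 genes higher. The median log2 fold change of the 10 genes was 0.67, beside 0.011 over all genes tested. In RNA from a sorted population, more cells of a type and more RNA per cell cannot be told apart.

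**Figure D1:**
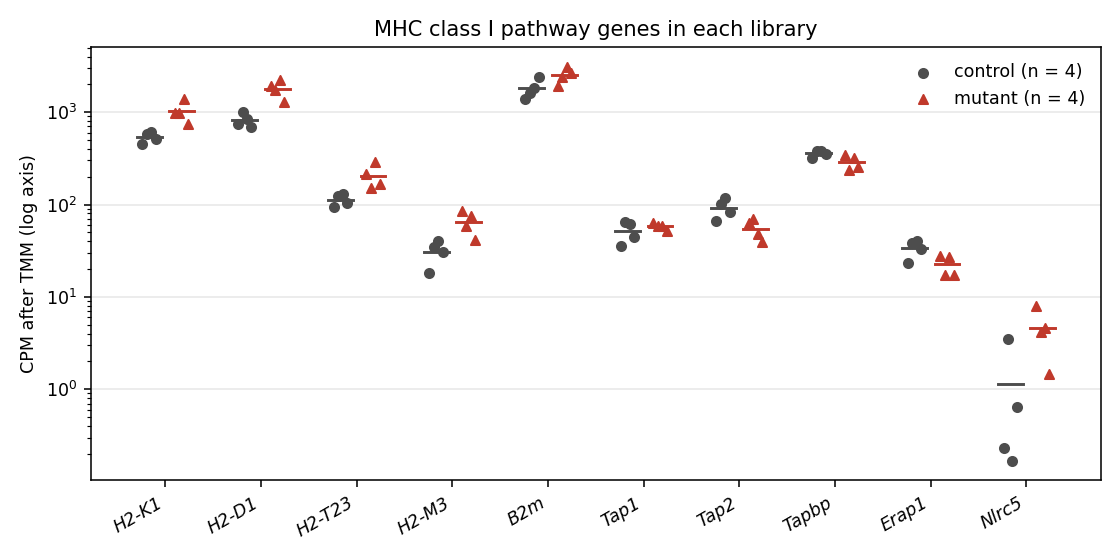
CPM after TMM scaling (log axis) of the 10 genes in each library, with circles for the 4 controls, triangles for the 4 mutants and short lines for group means. The groups are separate for *H2-K1*, *H2-D1*, *H2-T23* and *H2-M3* and overlap for the other 6 genes.

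*H2-K1* (ENSMUSG00000061232, chr17:33996017-34000347, minus strand), a classical heavy chain, was 453, 587, 613 and 507 CPM in controls 1 to 4 and 988, 989, 1396 and 745 CPM in mutants 1 to 4. The lowest mutant, replicate 4, was above the highest control, replicate 3. The log2 fold change was 0.93 (SE 0.21, 95% interval 0.46 to 1.41), a fold of 1.91 (edgeR adjusted p = 0.0210). The adjusted p passed 0.05 without control replicate 1 (0.0513, log2 fold change 0.86) and without control replicate 2 (0.053, log2 fold change 0.97).

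*H2-D1* (ENSMUSG00000073411, chr17:35262730-35267499, plus strand), the second classical heavy chain, was 738, 1009, 854 and 684 CPM in controls and 1909.8, 1722, 2250.3 and 1296 CPM in mutants. Mutant replicate 4 was again the lowest of its group, and it was above control replicate 2, the highest control. This was a log2 fold change of 1.13 (SE 0.21, 95% interval 0.66 to 1.60), or 2.19-fold (edgeR adjusted p = 0.00864). This call was kept in each of the 8 fits that left out 1 mouse, with adjusted p between 0.00666 and 0.0242. Together, *H2-K1* and *H2-D1* took 0.116% to 0.160% of the counts in controls and 0.207% to 0.360% in mutants.

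*H2-T23* (ENSMUSG00000067212, chr17:36029773-36032855, minus strand) was 93.0, 125, 131 and 104 CPM in controls and 216, 150, 287 and 168 CPM in mutants. The groups did not overlap, and mutant replicate 2 was close to the highest control. On the log2 scale the change was 0.86 (SE 0.23, 95% interval 0.35 to 1.37, edgeR adjusted p = 0.0389). It ranged from 0.65 to 0.98 when 1 mouse was left out, and the call was lost without any 1 of the 4 controls or without mutant replicate 1 or 3, where the adjusted p was 0.0626 to 0.0847.

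*H2-M3* (ENSMUSG00000016206, chr17:37270220-37274484, plus strand) was 18.2, 34.8, 40.2 and 30.8 CPM in controls and 84.3, 58.8, 74.3 and 41.6 CPM in mutants. Mutant replicate 4 stood just above control replicate 3, and the other mutants stood well clear of the controls. The log2 fold change was 1.06 (SE 0.29, 95% interval 0.41 to 1.72, edgeR adjusted p = 0.0449). Only the fit without mutant replicate 4 kept the call among those that left out 1 mouse (adjusted p = 0.0292), and the other 7 gave 0.0561 to 0.0929 with log2 fold changes of 0.88 to 1.21.

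Near-identical copies limit how far reads can be assigned to single heavy chains. Of the 50-base words in its exons, *H2-K1* shared 9.63%, *H2-D1* 12.8%, *H2-T23* 14.5% and *H2-M3* 0.576% with transcripts of other genes, so the count of *H2-M3* is the least exposed of the 4 to reads from other class I genes.

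Markers of T and NK cells moved in the same direction as the heavy chains. Of 10 such markers, edgeR called 4 higher (*Cd3e*, *Trac*, *Cd4* and *Nkg7*) and none lower, where it called 4.36% of all genes tested higher. DESeq2 called 6 higher, where it called 9.11% of genes higher. The summed level of the 10 markers was 15.3 to 63.1 CPM in controls and 118 to 226 CPM in mutants. *Cd4*, which macrophages also express, had the largest log2 fold change of the 10 (4.61). Without *Cd4* the sums were 14.5 to 57.3 CPM in controls and 61.8 to 176 CPM in mutants. All 10 markers had log2 fold changes above 0, with a median of 1.81, as had 10204 of the 20153 genes tested. *Cd3e* was 0.867 to 3.09 CPM in controls and 5.36 to 9.41 CPM in mutants. *Cd8a*, without a call, was 0.0839 to 6.51 CPM in controls and 0 to 25.8 CPM in mutants. *Klrb1c* was at 0 in at least 1 mutant, and *Ncr1* was at 0 in at least 1 control. Mutant replicate 4, lowest of the mutants for *H2-K1*, *H2-D1* and *H2-M3*, also had the lowest of the 4 mutant sums, whereas control replicate 3, highest of the controls for *H2-K1*, *H2-T23* and *H2-M3*, had the lowest sum of all 8 libraries. The study's methods, which point to a different deposit for *Smad2/3* microglia, describe a gate on TdTomato, CD45 and CD11b. The part of T and NK cells in the heavy chain result was not tested. EdgeR called none of the tested markers of B cells, of monocytes and neutrophils, of endothelium or of neurons and other glia. DESeq2 called 1 of these, the endothelial *Pecam1*, lower (5.12 to 13.3 CPM in controls and 0.605 to 5.01 CPM in mutants, adjusted p = 0.00837). In edgeR's test *Siglech* was the sole call, lower, among the markers listed for dendritic cells. It was 1689 to 2951 CPM in controls and 4.41 to 38.8 CPM in mutants. The other markers of that list were at most 17.2 CPM in any library (*Ccr7*), so *Siglech* is not read here as a measure of dendritic cells.

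**Figure D2:**
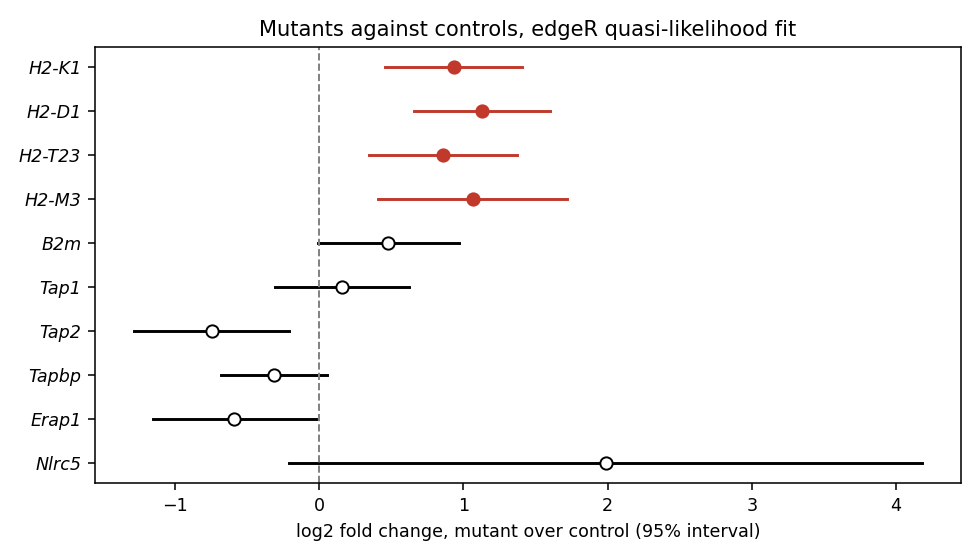
Log2 fold change of mutants over controls with its 95% interval for each of the 10 genes from edgeR's quasi-likelihood fit (n = 4 per group), filled where the adjusted p was under 0.05. The filled genes are the 4 heavy chains, from 0.86 for *H2-T23* to 1.13 for *H2-D1*, and the interval of *Nlrc5* is the widest, from -0.21 to 4.18.

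*B2m* (ENSMUSG00000060802, chr2:122147686-122153083, plus strand) encodes β2-microglobulin, the light chain that every heavy chain above pairs with. It was 1382, 1624, 1835 and 2396 CPM in controls and 1943, 2432, 3081 and 2624 CPM in mutants. Mutant replicate 1 lay inside the control range, while the other 3 mutants were above all controls. The log2 fold change was 0.48 (SE 0.22, 95% interval -0.0096 to 0.97, edgeR adjusted p = 0.182), without a call, and the interval reached 1.95-fold. Of 12277 genes with a mean of at least 5 CPM, those whose log2 CPM, centred on each gene's mean over the 8 libraries, ran closest to that of *B2m* were *Tmem192*, *Ebi3*, *Rmdn1*, *Gm13680* and *Magoh*, at root mean square distances of 0.124 to 0.131 on the log2 scale. The heavy chain *H2-K1* lay 0.373 from *B2m*, and the other 8 genes of the pathway lay 0.380 to 1.71 away.

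The transporter, loading and trimming genes were near or below their control levels. *Tap1* (ENSMUSG00000037321, chr17:34187553-34197225) was 35.9, 65.3, 61.8 and 44.3 CPM in controls and 63.4, 58.1, 57.9 and 52.1 CPM in mutants. All 4 mutants lay within the control range, and the log2 fold change was 0.16 (SE 0.21, 95% interval -0.31 to 0.62, edgeR adjusted p = 0.666).

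*Tap2* (ENSMUSG00000024339, chr17:34203527-34216321), the partner of *Tap1* in the transporter, was 67.1, 101, 118 and 82.9 CPM in controls and 62.6, 70.1, 47.5 and 39.3 CPM in mutants. Only mutant replicate 2 was above the lowest control, replicate 1. Its log2 fold change was -0.75 (SE 0.24, 95% interval -1.28 to -0.21, edgeR adjusted p = 0.0743). DESeq2 called the gene lower (adjusted p = 0.0296), where 11.6% of genes with an adjusted p were called lower. Of the exon bases of *Tap2*, 18.5% are shared with *Gm15821* and *Gm20496*, and the libraries are unstranded.

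*Tapbp* (ENSMUSG00000024308, chr17:33915899-33929292) was 315, 378, 385 and 355 CPM in controls and 343, 235, 319 and 256 CPM in mutants. Mutants 1 and 3 lay within the control range and mutants 2 and 4 below it, with a log2 fold change of -0.31 (SE 0.16, edgeR adjusted p = 0.244). Genes that share exon bases with *Tapbp* (29.0%, *Gm19412* and *Zbtb22*) can add to or take from its counts.

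*Erap1* (ENSMUSG00000021583, chr13:74639568-74693201) was 23.3, 38.6, 40.4 and 33.1 CPM in controls and 28.0, 17.1, 27.2 and 17.4 CPM in mutants. Mutants 2 and 4 were below all controls, and mutants 1 and 3 lay between the lowest control and the rest. Its log2 fold change was -0.59 (SE 0.25, 95% interval -1.16 to -0.026, edgeR adjusted p = 0.157). *Cast* shares 11.5% of the exon bases.

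*Nlrc5* (ENSMUSG00000074151, chr8:94434356-94527272), the class I transactivator, was the least abundant of the 10. It had 9, 136, 6 and 24 reads in controls and 305, 195, 166 and 53 reads in mutants, or 0.233, 3.54, 0.168 and 0.645 CPM and 7.92, 4.21, 4.62 and 1.46 CPM. Control replicate 2 stood among the mutants and apart from the other 3 controls, and mutant replicate 4 was below it. The log2 fold change was 1.99 (SE 0.97, 95% interval -0.21 to 4.18, edgeR adjusted p = 0.215). Without control replicate 2 it was 3.70 and was called (adjusted p = 0.0282).

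Set against exon length, the 10 genes kept 1 order in both groups except for *Tap2* and *H2-M3*. In CPM per kilobase of exon, controls had *B2m* at 2104 ± 503, *H2-D1* at 318 ± 55.7, *H2-K1* at 184 ± 25.1 and *Tapbp* at 98.8 ± 8.62 (SD, n = 4). *H2-T23* at 39.2, *Tap2* at 24.3, *H2-M3* at 21.6, *Tap1* at 9.47, *Erap1* at 4.65 and *Nlrc5* at 0.135 followed, and the ranges overlapped between neighbours only for *Tap2* and *H2-M3*. In mutants the means were 2930.4 ± 548 for *B2m*, 696 ± 154 for *H2-D1* and 350.3 ± 91.9 for *H2-K1* (SD, n = 4). *H2-M3* (45.0) stood above *Tap2* (14.5) there without overlap, while *Tapbp* (79.5) and *H2-T23* (71.0), *H2-T23* and *H2-M3*, and *Tap2* and *Tap1* (10.6) overlapped as neighbours.

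**Figure D3:**
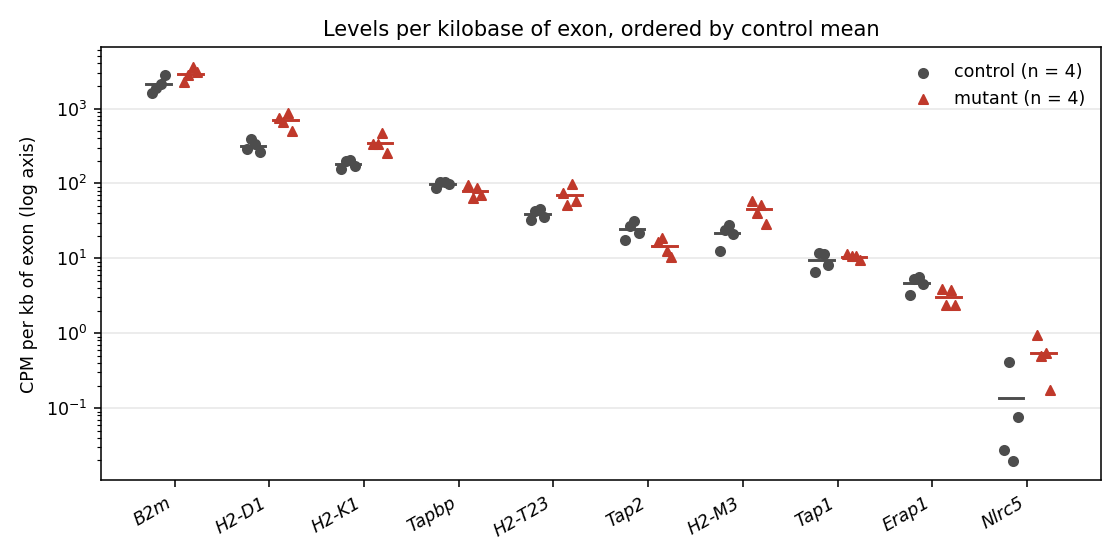
CPM per kilobase of exon (log axis) of the 10 genes in each library, ordered by the control mean, with circles for controls, triangles for mutants and short lines for group means (n = 4 each). *B2m* is the highest and *Nlrc5* the lowest in both groups, and *H2-M3* lies above *Tap2* in mutants.

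Ratios between genes of 1 library do not depend on how libraries are scaled, and 6 were compared by exact permutation, two-sided, of the 70 ways to split the libraries, with 0.0286 as the smallest possible p. *Tap2* to *Tap1* was 1.87, 1.54, 1.90 and 1.87 in controls and 0.987, 1.21, 0.821 and 0.753 in mutants. Every mutant was below every control, with means of 0.942 ± 0.202 and 1.80 ± 0.170 (SD, n = 4; exact permutation p = 0.0286, adjusted p = 0.171 over the 6 ratios). *B2m* to the sum of *H2-K1* and *H2-D1* was 1.16, 1.02, 1.25 and 2.01 in controls and 0.671, 0.897, 0.845 and 1.29 in mutants, so mutant replicate 4 lay within the control range and the others below it (exact permutation p = 0.114, adjusted p = 0.229). *H2-D1* to *H2-K1* averaged 1.76 ± 0.13 in mutants and 1.52 ± 0.18 in controls (SD, n = 4; exact permutation p = 0.0857, adjusted p = 0.229). For *H2-T23* to *H2-D1*, *Psmb8* to *Psmb5* and *Nlrc5* to *Ciita* the groups overlapped, with exact permutation p of 0.171, 0.429 and 0.429. No ratio passed 0.05 after adjustment, which would need at least 4 of the 6 at the smallest p.

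**Figure D4:**
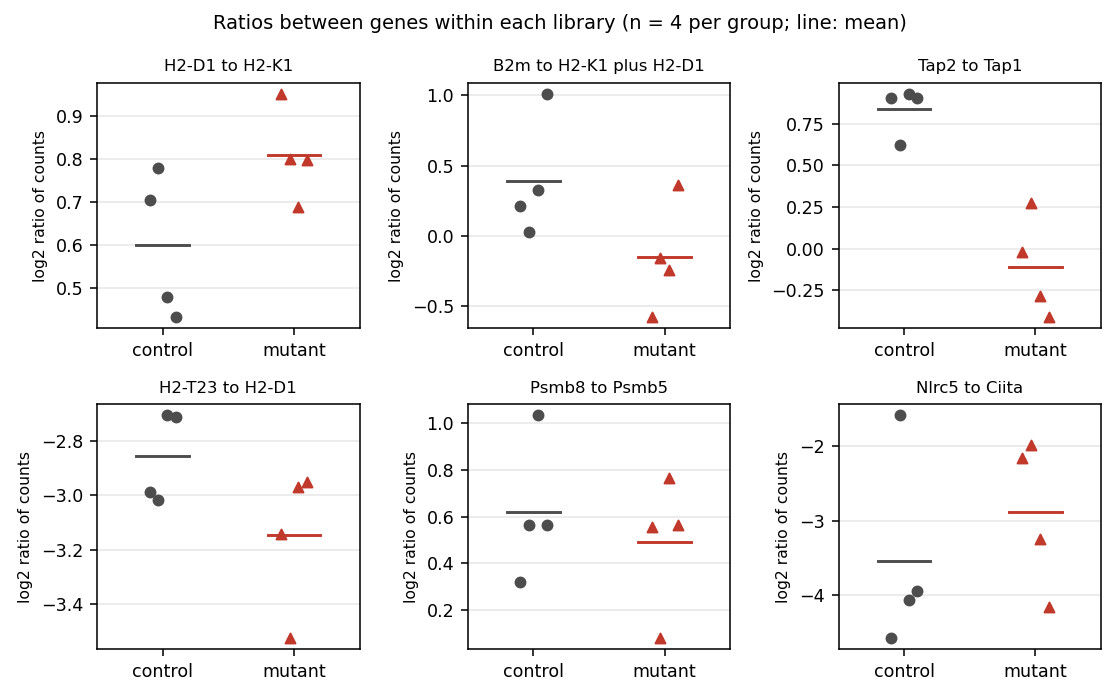
Log2 ratios of the counts of paired genes in each library for the 6 ratios, with circles for controls, triangles for mutants and lines for means (n = 4 each). The groups are separate for *Tap2* to *Tap1*, where mutants have ratios of 0.753 to 1.21 and controls 1.54 to 1.90, and overlap in the other 5 panels.

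The remaining class I heavy chains showed the pattern of the 4 above in part. Over all genes tested, 4.36% were called higher and 7.97% lower. Of 20 listed, 17 passed the filter of 10 counts in 4 libraries, 5 were higher, 1 was lower and 11 had no call, with a median log2 fold change of 0.90 (all genes tested, 0.011). *H2-Q7*, of the Qa-2 family, was 26.6 to 50.2 CPM in controls and 70.5 to 137 CPM in mutants (log2 fold change 1.48, edgeR adjusted p = 0.00591). *H2-Q1*, *H2-Q2* and *H2-Q4* rose by 1.05, 1.05 and 0.90 on the log2 scale. Of 50-base words, *H2-Q1* shares 14.96%, *H2-Q2* 16.09%, *H2-Q7* 26.5% and *H2-Q4* 36.4% with transcripts of other genes, and such reads cannot be told apart. For *H2-Q1* these genes include *H2-D1*. *Fcgrt*, the heavy chain of the neonatal Fc receptor, which also pairs with *B2m* but binds IgG and albumin in place of peptides, was 163 to 311 CPM in controls and 484 to 533 CPM in mutants (log2 fold change 1.12, edgeR adjusted p = 0.00701). *Procr*, the endothelial protein C receptor, fell by 6.50 on the log2 scale, and binds no peptide. *H2-T24* (-0.88, edgeR adjusted p = 0.237) and *Mr1* (-0.40, edgeR adjusted p = 0.315) had negative values with no call. The number called higher was 3 without mutant replicate 2 or mutant replicate 3, and 10 in DESeq2. With a filter of 10 counts in all 8 libraries it was 8. None was lower there, but *Procr*, at 0 CPM in at least 1 mutant, does not pass that filter.

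Genes of peptide supply included none called higher, where edgeR called 4.36% of all genes tested higher and 7.97% lower. For a list of 17 genes, none higher is near that share. Of 17 proteasome, activator and peptidase genes, 3 were lower: *Lap3*, a leucine aminopeptidase (-1.38 on the log2 scale, edgeR adjusted p = 0.00374), *Blmh*, bleomycin hydrolase (-0.80), and *Psme3*, a proteasome activator of the nucleus (-0.58). The median was 0.0023. None of the 5 immunoproteasome genes was called, with log2 fold changes of -0.00049 for *Psmb8*, 0.21 for *Psmb9*, -0.19 for *Psmb10*, 0.25 for *Psme1* and 0.085 for *Psme2*. *Psmb8* was 108 to 165 CPM in controls and 119 to 150 CPM in mutants, so the mutants lay within the control range.

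Folding, loading and export genes were lower or not called. Of 13, 4 were lower (7.97% of all genes tested) and none higher (4.36%), with a median log2 fold change of -0.45. The chaperones calreticulin (*Calr*, 878 to 1348 CPM in controls and 522 to 745 CPM in mutants, log2 fold change -0.72) and calnexin (*Canx*, -0.52) fell, as did *Uggt1*, the folding sensor (-0.65), and *Sppl2a*, an intramembrane protease (-0.83, edgeR adjusted p = 0.0123). *Pdia3*, the ERp57 of the loading complex, was 979 to 1150.8 CPM in controls and 597 to 895 CPM in mutants without a call (-0.45, edgeR adjusted p = 0.104). The number called lower was 2 without control replicate 1 and 1 without any 1 of the other controls or of mutants 1, 2 and 4.

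**Figure D5:**
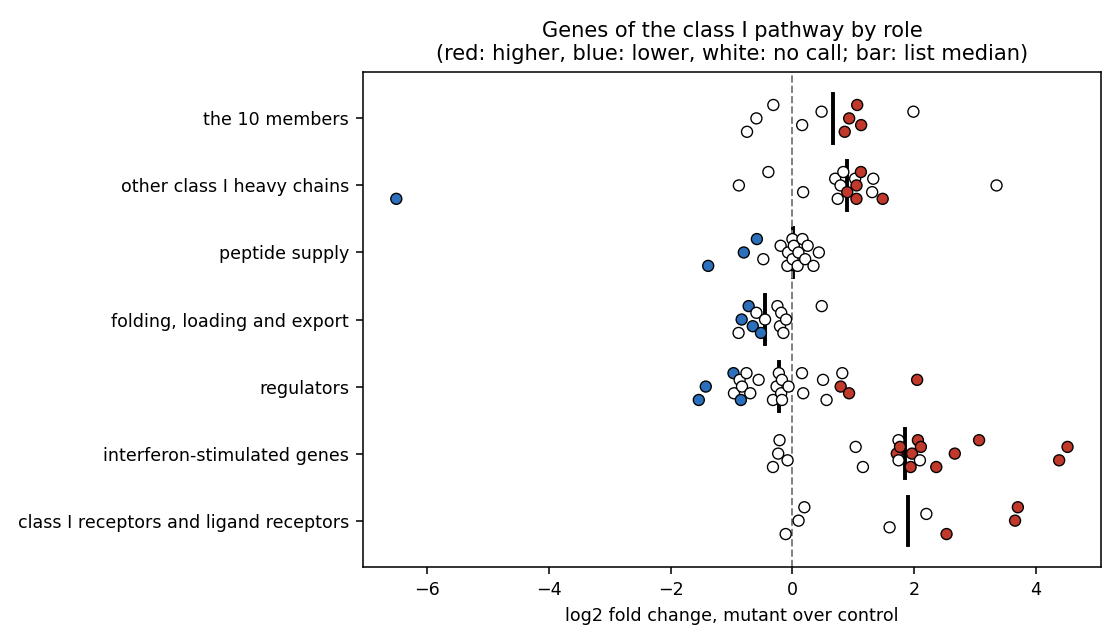
Log2 fold change of mutants over controls of every tested gene in 7 lists of the class I pathway, with red for higher, blue for lower and white for no call, and a bar at each list's median. The interferon-stimulated genes have a median of 1.85 and the folding, loading and export genes one of -0.45.

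Regulators of class I genes moved both ways. Of 25, 3 were higher (4.36% of all genes tested) and 4 lower (7.97%), with a median of -0.22. *Ciita*, the class II counterpart of *Nlrc5*, was 5.84, 10.7, 3.02 and 10.14 CPM in controls and 35.6, 16.7, 44.2 and 26.4 CPM in mutants, and no mutant overlapped the controls (log2 fold change 2.05, edgeR adjusted p = 0.0175). The type I interferon receptor chain *Ifnar2* (0.93) and the feedback inhibitor *Socs1* (0.79) also rose. *Irf8* (-1.42), a transcription factor of myeloid cells, the interferon gamma receptor chain *Ifngr1* (-0.97), *Nfkb1* (-1.54) and *Rela* (-0.85), which encode subunits of NF-κB, fell. The 8 subunits of the RFX, CREB and NF-Y complexes that sit on the X and Y boxes (*Rfx5*, *Rfxap*, *Rfxank*, *Creb1*, *Atf1*, *Nfya*, *Nfyb* and *Nfyc*) had no call, and neither had *Irf1* (-0.32). The number called lower was 2 without control replicate 2, mutant replicate 2 or mutant replicate 4.

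Interferon-stimulated genes outside the pathway rose in larger part. Of 20, 11 were higher (4.36% of all genes tested) and none lower (7.97%), with a median log2 fold change of 1.85. *Oasl2*, an antiviral protein of the oligoadenylate synthetase family, was 0.420 to 3.83 CPM in controls and 18.8 to 62.7 CPM in mutants (log2 fold change 4.52, edgeR adjusted p = 0.00267). *Irf7*, a transcription factor of the type I interferon response, was 7.77 to 33.2 CPM in controls and 67.6 to 123 CPM in mutants (2.36, edgeR adjusted p = 0.0128). *Iigp1*, *Oas1a*, *Usp18*, *Isg15*, *Ifitm3*, *Ifi27l2a*, *Cxcl10*, *Bst2* and *Ifit3* rose by 1.71 to 4.38. *Gbp3* (-0.08), *Gbp7* (-0.32), *Igtp* (-0.23) and *Irgm1* (-0.21) were the only genes of the list with values below 0, and none of them was called. *Rsad2* (2.09), *Ifit1* (1.74), *Mx1* (1.74), *Ifit2* (1.16) and *Gbp2* (1.04) were above 0, also without a call. The summed level of the list was 294 to 553 CPM in controls and 1088 to 1365 CPM in mutants.

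Receptors that read class I molecules, or belong to their families, completed the lists. Over all genes tested, 4.36% were called higher. Of 8, 3 were higher: the inhibitory *Lilrb4a* (2.18 to 6.94 CPM in controls and 25.9 to 99.3 CPM in mutants, log2 fold change 3.65) and its neighbor *Lilr4b* (4.01 to 23.4 CPM and 113 to 225 CPM, 3.70), and *Cd8b1* (2.53), a chain of the CD8 co-receptor of T cells. *Lilrb4a* shares 35.85% of its exon bases with *Gm49339* and *Gm40645*, and *Lilr4b* 2.243% with *Gm49339*. Shared 50-base words were not counted for these genes. *Pirb* (0.20, edgeR adjusted p = 0.623), a receptor of myeloid cells for class I molecules, was 25.9 to 42.8 CPM in controls and 31.3 to 53.5 CPM in mutants and had no call. *Cd8b1* moved with the T and NK markers given above, whose part in this value was not tested.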

How the data were processed

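RNA from sorted microglia of 4 mutant and 4 control mice was analysed. The authors used Rsubread for alignment to mm10 and featureCounts for counting, by their Methods, and what they deposited are raw counts per gene. The labels name Nextera XT single-end libraries and the Methods NEBNext Ultra II paired-end libraries, both unstranded. For the *Smad2/3* microglia the Methods point to a different deposit, and genotype and cell type are the ground for matching this series to them. The submitters' notes name DESeq2 1.28. The authors' own comparison table (mean, fold change, error, test statistic, p-values, gene names) was not used. All 8 count columns were used.

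A gene was tested where 4 or more of the 8 libraries held at least 10 counts, using edgeR 4.0.16 in R 4.3.3 (TMM, estimateDisp, glmQLFit, glmQLFTest, Benjamini-Hochberg adjustment, calls at adjusted p under 0.05). The standard error is the size of the log2 fold change divided by the square root of F. The biological coefficient of variation was 0.542. With 1 library for each mouse, differences between mice and between library preparations cannot be told apart. CPM per kilobase used GENCODE M21 exon lengths. Alternatives were DESeq2 1.42.0, RLE factors, library totals, 2 other filters, a replicate block, and each mouse left out with the tested genes kept. For ratios they were 1 added to each CPM, same-numbered pairs, and each mouse left out, and 0.5 was added to each count for *Nlrc5* to *Ciita*. Scripts were tested on simulated data. All libraries differed by more than sampling noise (chi-square per gene at least 107).

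The genes, gene lists and marker lists were chosen with earlier results of these data known, and named genes are the 10, list genes by call or value, and the 5 nearest to *B2m*. The promoter motifs were listed with them, except the spaced pair. The list gene Nrdc is *Nrd1* in the annotation, and Marchf9 is *March9*. One gene of the regulator list counts in its totals and is not reported here.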

Additional observations from a re-analysis of the deposited data

Results flagged for a closer look

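Among 32 groups of 4 libraries (each of the 10 genes in CPM and each of the 6 ratios on the log2 scale, in both groups), 2 held a library far from the other 3 by Dixon's criterion, which chance meets in about 1 group in 20. *Nlrc5* was 3.541 CPM in control replicate 2, against 0.1679 to 0.6455 CPM in the other controls, a gap of 0.858 of the group's range. The log2 ratio of *Tap2* to *Tap1* was 0.6243 in the same library, against 0.9017 to 0.927 in the other controls, a gap of 0.916 of the range. The cause was not tested.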

How the results depend on the processing

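Under DESeq2, RLE factors, library totals, no filter, a filter of 10 counts in all 8 libraries and the replicate block, *H2-K1* and *H2-D1* kept their direction and their call. *H2-T23* lost its call with no filter (0.8421, adjusted p = 0.0604), as did *H2-M3* (1.04, adjusted p = 0.0622), which also lost it with the replicate block (1.06, adjusted p = 0.0797). *Tap2* was called in DESeq2 (-0.7525). *Nlrc5* could not be fitted with the filter of 10 counts in all 8 libraries, which it does not pass. Of the 10 genes, 2 were higher with no filter and 3 with the block, and 1 was lower in DESeq2. Among the remaining heavy chains, 10 were higher in DESeq2 and 8, with 0 lower, under the filter in all 8 libraries, which *Procr* does not pass. Of the folding, loading and export genes, 2 were lower with library totals and 1 with no filter. Over all genes, DESeq2 called 2089 higher and 2662 lower, against 878 and 1607. Library totals moved the median log2 fold change of all genes from 0.011 to 0.13. The log2 difference of the *Nlrc5* to *Ciita* ratio turned from 0.65 to -0.4748 with 1 added to each CPM. With each mouse left out, log2 fold changes ranged from 0.7488 to 1.058 for *H2-K1*, 0.6526 to 0.9828 for *H2-T23*, 0.8764 to 1.225 for *H2-M3* and 1.579 to 3.695 for *Nlrc5*. The number of the 10 genes called higher ranged from 1 (without control replicate 1) to 4, that of the remaining heavy chains from 3 to 7, of folding genes lower from 1 to 3, of regulators lower from 2 to 4, and over all genes from 525 to 1024 higher and 1005 to 1587 lower, with the fewest without control replicates 2 and 3. The log2 difference of *Psmb8* to *Psmb5* ranged from -0.2302 to 0.007776, above 0 without control replicate 3 or mutant replicate 2. Where no cause is named, the cause was not tested. Libraries with the same replicate number correlated in their deviations from the group means at 0.0183 to 0.166, over 0.1 in 3 of 4 pairs, and 6 of 8 libraries correlated best with their own number, a hint from the data and not the design. Since 1 pair was under 0.1 and the labels do not say what a number marks, the numbers were not taken as pairs. The block gave 886 genes higher and 1497 lower and moved no count of calls of a whole pathway list by over 1.5 times. In parts of lists, 2 in place of 4 T and NK markers were higher. Heavy chains encoded outside the H2 region had 2 higher in place of 1, and *Ciita* with the RFX, CREB and NF-Y subunits had 0 in place of 1. With the block, the adjusted p of *H2-Q4* was 0.0529, of *Ciita* 0.0656, of *Canx* 0.0723, of *Uggt1* 0.0650, of *Cd8b1* 0.0811, of *Cd3e* 0.0507 and of *Trac* 0.115, so these were not called, while *Hfe*, *Hspa5*, *Ifnar1* and *Jak1* were. For ratios, exact sign flips over 4 pairs cannot go below 0.125.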
